A study of Mus musculus with 16 samples.

Results

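The deep-layer neuron genes are 10 genes of the neurons of cortical layer 5, layer 6 and the subplate, *Bcl11b*, *Fezf2*, *Tbr1*, *Sox5*, *Tle4*, *Foxp2*, *Zfpm2*, *Crym*, *Ldb2* and *Nr4a2*. They were chosen by name and not by a measured value, though with earlier results of these data known. They are 10 of the 51912 genes listed in the count tables. Each had at least 1 count in every mouse. RNA-seq with unique molecular identifiers (UMIs), short random tags that mark PCR copies of one cDNA, was read from the cerebral cortex of embryonic day 15.5 (E15.5) mouse embryos. *Knl1*, called *Casc5* in the labels, encodes a kinetochore scaffold of the spindle assembly checkpoint, and *Trp53* encodes p53. The 3 groups were 7 ctrl embryos, of which 5 were wild type and 2 (T4 and T5) heterozygous for *Knl1*; 4 cKO embryos with *hGFAP-Cre* conditional deletion of *Knl1*; and 4 dKO embryos with *hGFAP-Cre* conditional deletion of both *Knl1* and *Trp53*. The labels give the ctrl embryos by *Knl1* genotype alone. The human GFAP promoter drives Cre in radial glia of the cortex, so cells that had left the cell cycle before Cre acted carry intact alleles, and the dissected cortex also holds cells outside this lineage.

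Deep-layer neurons are the first projection neurons that cortical radial glia produce. Layer 5 neurons send axons to the brainstem and spinal cord, layer 6 neurons project to the thalamus, and subplate neurons lie under the cortical plate and guide early thalamic axons. *Fezf2*, a zinc finger repressor, and *Bcl11b* (CTIP2), which acts after it, specify layer 5 subcerebral neurons, while *Tbr1*, a T-box factor, and *Sox5*, an HMG-box factor, specify layer 6 and subplate identity. *Tle4* (a Groucho corepressor), *Foxp2* (a forkhead factor) and *Zfpm2* (FOG2, a cofactor of GATA factors) mark corticothalamic neurons of layer 6. *Ldb2*, a LIM-domain binding adaptor, and *Crym*, a thyroid hormone binding protein, mark deep-layer projection neurons, and *Nr4a2*, an orphan nuclear receptor, marks the subplate. Several of these genes are also used outside the cortex, with *Bcl11b* and *Foxp2* being abundant in the striatum.

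The cKO mice were 5 and 7 of litter 1, S2 of litter 2 and F3 of litter 4. The ctrl mice were 2 and 6 of litter 1, S1 and S3 of litter 2 and T3, T4 and T5 of litter 3, and the dKO mice were T2 and T8 of litter 3 and F1 and F7 of litter 4. The libraries S2 and S2b of the same cKO mouse were summed. Batch 1 held litter 1, S2 and S3, batch 2 held S1, and batch 3 held litters 3 and 4. The total count was between 399832 and 3266227 in ctrl, between 4178461 and 8800987 in cKO and between 552186 and 5396803 in dKO, so that every cKO mouse was sequenced more deeply than every ctrl mouse. *Knl1* was between 48.7 and 80.0 counts per 1000000 (CPM) in ctrl, 50.004 and 80.4 CPM in cKO and 33.4 and 58.2 CPM in dKO, and *Trp53* was between 15.6 and 47.0, 24.0 and 33.3, and 19.8 and 32.3 CPM. These counts cover the whole genes, the undeleted exons included, and therefore do not check the genotypes. Of the marker lists of other cells, *Sox2*, *Neurod1* and *Pou3f3* were listed at 0 in every library, while the other genes that mark radial glia, progenitors and upper-layer neurons had counts.

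Sequence upstream of the start site is shown for *Sox5*, *Tle4* and *Nr4a2*, to give the genomic setting of the 2 genes whose intervals lay off 0 in cKO versus dKO and of the subplate gene. RefSeq promoter windows were matched for 6 of the 10 genes, *Bcl11b*, *Fezf2*, *Tbr1*, *Sox5*, *Tle4* and *Nr4a2*, and these 3 each have a window whose 250 upstream bases hold no annotated exon. They lie on the minus strand of GRCm38.p6, at chr6:143947107-143947356 (*Sox5*, within an intron of the longer annotated gene), chr19:14598184-14598433 (*Tle4*) and chr2:57124004-57124253 (*Nr4a2*). Each runs 5′ to 3′ and ends at the base before the start site, and capitals mark the SOX core ACAAT on either strand.
Sox5 upstream: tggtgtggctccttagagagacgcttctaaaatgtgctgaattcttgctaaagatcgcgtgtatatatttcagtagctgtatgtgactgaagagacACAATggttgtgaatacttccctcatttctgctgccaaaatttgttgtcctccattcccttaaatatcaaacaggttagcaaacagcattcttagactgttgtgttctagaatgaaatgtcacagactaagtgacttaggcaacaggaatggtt
Tle4 upstream: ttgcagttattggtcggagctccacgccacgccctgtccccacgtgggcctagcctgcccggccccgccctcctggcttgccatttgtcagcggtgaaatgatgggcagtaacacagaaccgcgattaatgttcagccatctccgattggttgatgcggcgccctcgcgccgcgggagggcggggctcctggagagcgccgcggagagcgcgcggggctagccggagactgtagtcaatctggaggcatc
Nr4a2 upstream: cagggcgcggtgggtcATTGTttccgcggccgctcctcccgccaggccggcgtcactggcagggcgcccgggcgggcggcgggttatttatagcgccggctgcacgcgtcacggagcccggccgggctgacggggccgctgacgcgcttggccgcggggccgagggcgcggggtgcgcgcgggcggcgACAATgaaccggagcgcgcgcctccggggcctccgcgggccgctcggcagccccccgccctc

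The *Sox5* window holds 1 SOX core, the *Nr4a2* window 2 and the *Tle4* window 0. Of 32851 RefSeq windows of the same length, 27.7% hold at least 1. An E-box, CANNTG, which reads the same on both strands, occurs 2 times in the *Tle4* window and in neither of the other two, against 66.2% of all windows. The p53 half-site was not found in any of the 3 windows, and 7.13% of all windows hold it. The windows differ in base composition, with a GC content of 39.6% for *Sox5*, 65.2% for *Tle4* and 80% for *Nr4a2*. These are matches of letters only.

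In ctrl, levels of the genes could be compared with each other after division by exon length, as CPM per kb. *Sox5* was the highest at 163 ± 12.1 CPM per kb (SD, n = 7), and none of its 7 ctrl mice overlapped those of *Ldb2*, next in order at 105 ± 20.0 CPM per kb. *Bcl11b* followed at 87.8 ± 14.4, *Zfpm2* at 60.5 ± 11 and *Tle4* at 57.3 ± 11.4 CPM per kb. From *Ldb2* to *Tle4*, each gene overlapped its neighbour in the order. *Tbr1* at 32.4 ± 2.94 and *Foxp2* at 31.4 ± 3.19 CPM per kb were below *Tle4* in every mouse and not separable from each other. *Fezf2* at 10.5 ± 2.57 and *Nr4a2* at 7.76 ± 2.08 CPM per kb again overlapped, and *Crym* was lowest at 1.54 ± 1.15 CPM per kb. Counts per mouse set how well each level is known. *Sox5* had 1032 counts or more in each ctrl mouse, *Fezf2* as few as 10, *Nr4a2* 18 and *Crym* 1.

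**Figure D1:**
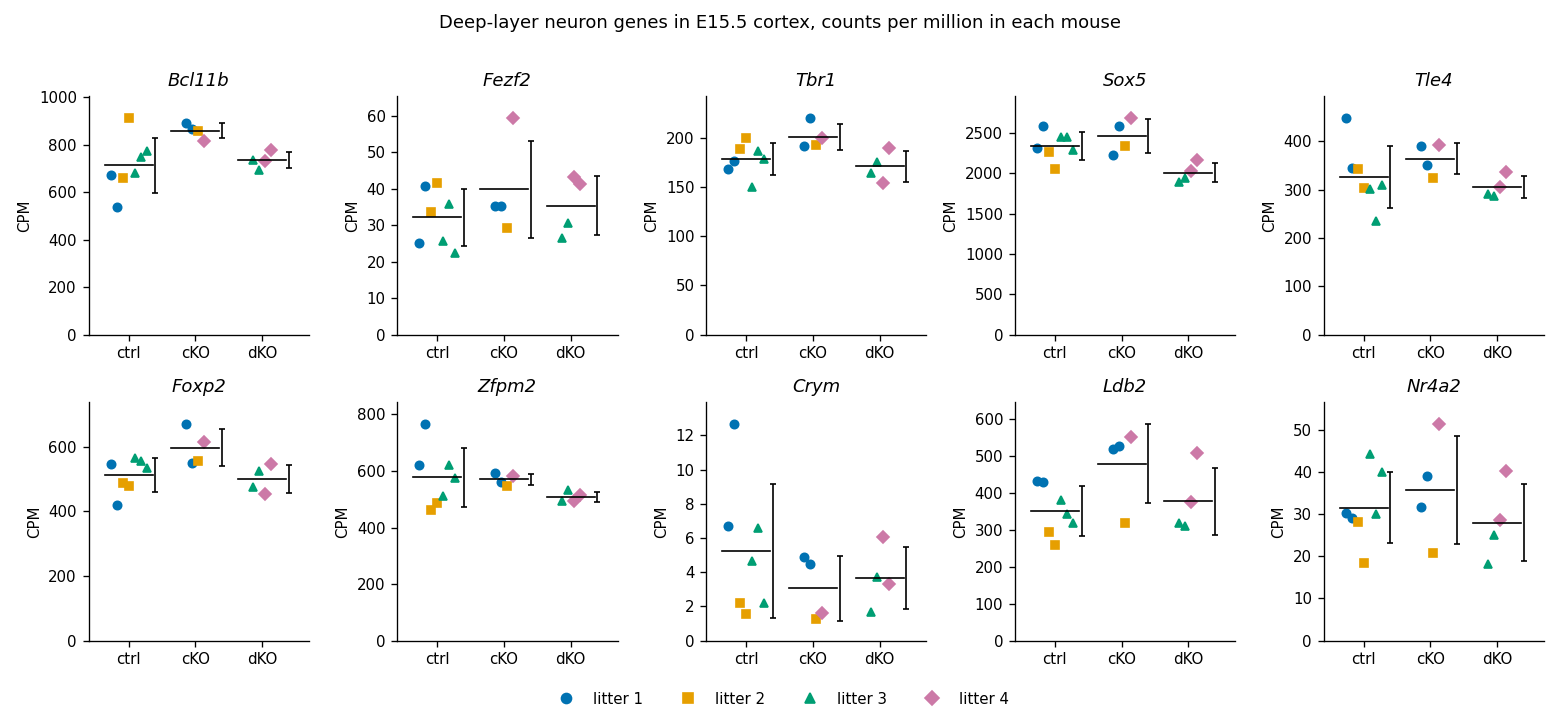
CPM of each of the 10 deep-layer genes in each mouse (y axis, from 0) by group (x axis); color and shape give the litter, the horizontal line the mean and the bar beside it the SD. *Ldb2* and *Zfpm2* sort by litter within ctrl, and so does *Crym*, though on as few as 1 count in a mouse. In these CPM, which are scaled by TMM, every cKO mouse lies above every dKO mouse for *Bcl11b*, *Tbr1*, *Sox5*, *Foxp2* and *Zfpm2*. In counts divided by the total count alone, the cKO and dKO mice overlap for each of those genes.

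No deep-layer gene differed between cKO and ctrl, dKO and ctrl or cKO and dKO at an FDR below 0.05. Of the 10 genes, 0 were called in cKO versus ctrl, where 0.16% of all listed genes were. In dKO versus ctrl 0 of 10 were called, against 0.0501% of all genes, and in cKO versus dKO 0 of 10, against 0.052%. At these shares a call among 10 genes is rare, so the counts of 0 say little about the genes, and the intervals of the fold changes say more. At an unadjusted p below 0.05 from the edgeR likelihood ratio test, 1 gene (*Ldb2*) stood out in cKO versus ctrl, 0 in dKO versus ctrl and 2 (*Sox5* and *Tle4*) in cKO versus dKO. Of all listed genes, 4.7%, 3.32% and 4.16% were at such a p. Of the 2176 genes with a mean of at least 100 CPM, to which 7 members including these 3 belong, it was 19.2%, 5.1% and 6.39%. In these bulk samples, fewer cells of a type and less RNA per cell cannot be told apart.

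*Bcl11b* (ENSMUSG00000048251, GRCm38 chromosome 12 from 107910403 to 108003602) was at 535 CPM in the lowest, 682 in the median and 912 in the highest ctrl mouse. It was at 891, 867, 858 and 816 CPM in cKO mice 5, 7, S2 and F3 and at 736, 695, 729 and 777 CPM in dKO mice T2, T8, F1 and F7. The cKO mice lay close together and above all ctrl mice but S3, and above all dKO mice. The log2 fold change was 0.25 in cKO versus ctrl (95% interval −0.0080 to 0.51; edgeR FDR of 1) and 0.24 in cKO versus dKO (−0.023 to 0.50; FDR of 1). In dKO versus ctrl it was 0.05 (−0.22 to 0.32; FDR of 1). The SD of 31.3 CPM over cKO mice compared with 116 CPM over ctrl mice, in which 6 was lowest.

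*Fezf2* (ENSMUSG00000021743, chromosome 14 from 12342094 to 12348189) was at 22.2, 33.7 and 41.5 CPM in the lowest, median and highest ctrl mouse. It was at 35.3, 35.3, 29.1 and 59.3 CPM in cKO mice 5, 7, S2 and F3. In dKO T2 and T8 of litter 3 were at 26.5 and 30.5 CPM, and F1 and F7 of litter 4 at 43.2 and 41.1 CPM. The groups overlapped in all 3 comparisons, and the 3 mice of litter 4 held the 2 highest dKO levels and the highest cKO level. Its fold change of 1.15 in cKO versus ctrl had a 95% interval from 0.869 to 1.52. Without cKO mouse F3 the log2 fold change turned from 0.20 to −0.089, and in cKO versus dKO from 0.12 to −0.18.

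*Ldb2* (ENSMUSG00000039706, chromosome 5 from 44472132 to 44799680) was between 258 and 432 CPM in ctrl, with a median of 342 CPM. In cKO it was at 518, 527 and 550.5 CPM in 5, 7 and F3 and at 319 CPM in S2. In dKO it was at 318 CPM in T2, 310.5 CPM in T8, 375 CPM in F1 and 506 CPM in F7. The first 3 cKO mice were above every ctrl mouse, while S2 was within the ctrl range. The log2 fold change of 0.44 in cKO versus ctrl was the largest positive one of the 10 genes (95% interval 0.12 to 0.75; edgeR FDR = 0.517). It passed the threshold with the quasi-likelihood F test (0.44, FDR = 0.0068) and without cKO mouse S2 (0.59, FDR = 0.0127 from edgeR), and in no other setting tried. Within batch 1 it was 0.30 and with litter as a block 0.24, both at an edgeR FDR of 1. Within the litters, both cKO mice of litter 1 were above its 2 ctrl mice (430.2 and 432 CPM) and S2 was above its ctrl littermates S3 and S1 (258 and 294 CPM), ratios of 1.21 and 1.16.

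*Crym* (ENSMUSG00000030905, chromosome 7 from 120186380 to 120202111) was the faintest of the genes, at 1.54 to 12.7 CPM in ctrl, with a median of 4.67 CPM, from 1 to 40 counts. It was at 4.88, 4.50, 1.25 and 1.59 CPM in cKO mice 5, 7, S2 and F3 and at 1.66, 3.70, 6.04 and 3.30 CPM in dKO mice T2, T8, F1 and F7. It was the only one of the 10 with a negative log2 fold change in all 3 comparisons, −0.90 in cKO versus ctrl (95% interval −1.92 to 0.12), −0.47 in dKO versus ctrl and −0.42 in cKO versus dKO. Ctrl mouse 6 was the highest at 12.7 CPM, and without it the value was −0.30 in cKO versus ctrl and 0.17 in dKO versus ctrl. The groups overlapped, while in litters 1, 2 and 4 each cKO mouse was below the ctrl or dKO mice of its litter. Depth was uneven for this gene, since 3 counts amount to 7.50 CPM in ctrl mouse T3 and to 0.341 CPM in cKO mouse S2.

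*Tbr1* (ENSMUSG00000035033, chromosome 2 from 61802930 to 61814114) was between 149 and 199.8 CPM in ctrl, with a median of 178 CPM. It was at 191, 219.8, 192 and 199.8 CPM in cKO mice 5, 7, S2 and F3 and at 164, 176, 154 and 189 CPM in dKO mice T2, T8, F1 and F7. All cKO mice were above all dKO mice, the nearest being 5 and F7. The log2 fold change was 0.14 in cKO versus ctrl (95% interval −0.076 to 0.36), −0.068 in dKO versus ctrl (−0.31 to 0.18) and 0.24 in cKO versus dKO (−0.013 to 0.50). *Tbr1* had the narrowest interval in cKO versus ctrl of the 10 genes, which ran from a fold of 0.949 to 1.28.

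*Sox5* (ENSMUSG00000041540, chromosome 6 from 143828425 to 144781977) was between 2049 and 2592 CPM in ctrl, with a median of 2309.6 CPM. In cKO mice 5, 7, S2 and F3 it was at 2227, 2586, 2340.1 and 2687 CPM and in dKO mice T2, T8, F1 and F7 at 1893, 1946, 2024 and 2169.7 CPM. No dKO mouse reached the cKO range, and 3 of the 4 dKO mice were below every ctrl mouse. Its log2 fold change was 0.31 in cKO versus dKO (95% interval 0.014 to 0.60; edgeR FDR of 1), −0.22 in dKO versus ctrl (−0.46 to 0.028) and 0.05 in cKO versus ctrl (−0.18 to 0.29). Within litter 3, both dKO mice were below all 3 ctrl mice, and within litter 4 cKO mouse F3 was above both dKO mice. *Sox5* shares 1330 exon bases with *Sox5os1* on the opposite strand, which had 0 counts. The strand setting of the counting is not given, so the effect of this overlap on the *Sox5* count is not known.

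*Tle4* (ENSMUSG00000024642, chromosome 19 from 14448150 to 14598051) was at 235, 309 and 448 CPM in the lowest, median and highest ctrl mouse. It was at 391, 352, 324 and 392 CPM in cKO mice 5, 7, S2 and F3 and at 292, 286, 306 and 338 CPM in dKO mice T2, T8, F1 and F7. Only F7 among dKO reached into the cKO range, above S2. A log2 fold change of 0.26 was estimated in cKO versus dKO (95% interval 0.00033 to 0.53; edgeR FDR of 1), 0.14 in cKO versus ctrl and −0.082 in dKO versus ctrl, where both intervals held 0.

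*Foxp2* (ENSMUSG00000029563, chromosome 6 from 14901349 to 15441977) was between 420.1 and 565 CPM in ctrl, with a median of 533 CPM. It was at 670.4, 549.6, 555 and 616 CPM in cKO mice 5, 7, S2 and F3 and at 474, 525, 453 and 547 CPM in dKO mice T2, T8, F1 and F7. All cKO mice were above all dKO mice, by a narrow gap between 7 and F7, and the cKO and ctrl ranges overlapped. In the fits the log2 fold change was 0.27 in cKO versus dKO (95% interval −0.0033 to 0.55) and 0.21 in cKO versus ctrl (−0.024 to 0.45), both at an edgeR FDR of 1.

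*Zfpm2* (ENSMUSG00000022306, chromosome 15 from 40655035 to 41104592) was between 460.4 and 766 CPM in ctrl, with a median of 574 CPM. It was at 593, 560.1, 549 and 581 CPM in cKO mice 5, 7, S2 and F3 and at 492, 532, 494 and 513 CPM in dKO mice T2, T8, F1 and F7. The mutant mice were tightly grouped, with coefficients of variation of 3.48% in cKO and 3.67% in dKO against 18.2% in ctrl. Counting alone gives 4.56% in ctrl, 1.87% in cKO and 3.88% in dKO, so the spread in dKO was no larger than that of counting. All cKO mice were above all dKO mice, with a log2 fold change of 0.18 (95% interval −0.068 to 0.43), and both groups lay inside the ctrl range.

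*Nr4a2* (ENSMUSG00000026826, chromosome 2 from 57106830 to 57124003) was between 18.4 and 44.4 CPM in ctrl, with a median of 30.1 CPM. It was at 31.7, 39.0, 20.7 and 51.4 CPM in cKO mice 5, 7, S2 and F3 and at 18.2, 24.9, 28.7 and 40.2 CPM in dKO mice T2, T8, F1 and F7. The groups overlapped throughout. Its log2 fold change in dKO versus ctrl was 0.03 (95% interval −0.40 to 0.47), and −0.71 within litter 3 alone, where T2 and T8 were below all 3 ctrl littermates (edgeR FDR of 1). With litter as a block it was −0.70 (edgeR FDR of 1).

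**Figure D2:**
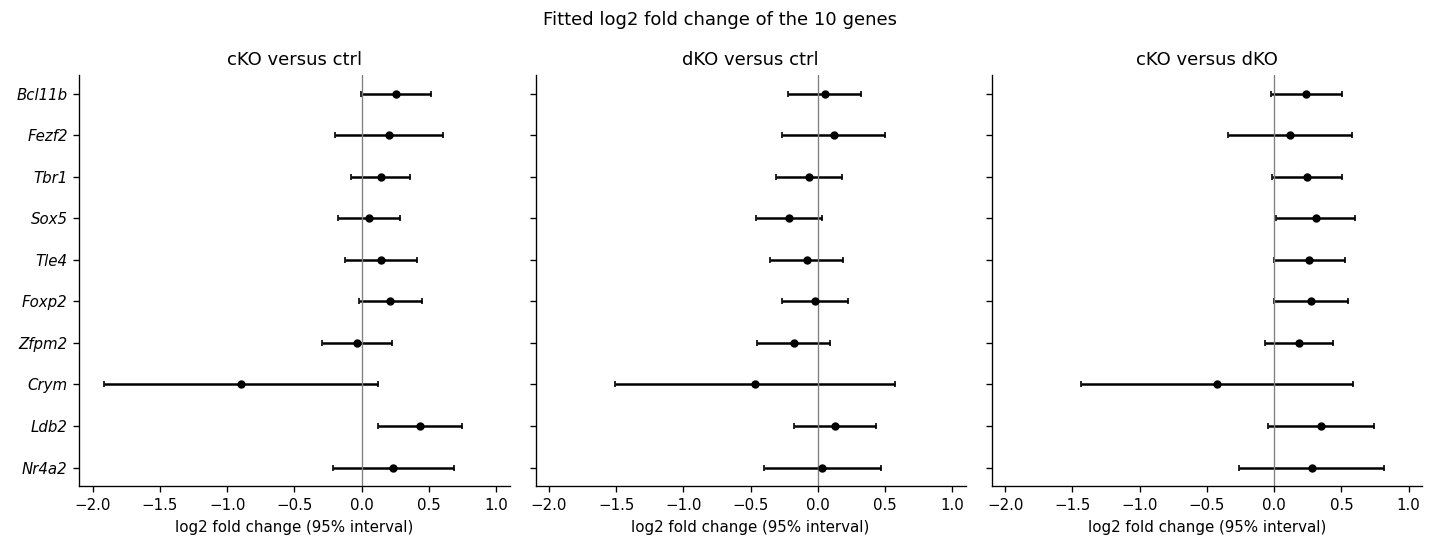
Log2 fold change of each gene (x axis) with its 95% interval in the 3 comparisons, from the edgeR fits. In cKO versus ctrl only the interval of *Ldb2* lies off 0, and in cKO versus dKO those of *Sox5* and *Tle4*; none reached an FDR below 0.05.

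Read as a list, the 10 genes had a median log2 fold change of 0.17 in cKO versus ctrl, with 8 of 10 above 0. In dKO versus ctrl the median was −0.045, with 4 of 10 above 0, and in cKO versus dKO it was 0.25, with 9 of 10 above 0. With litter as a block the first was 0.041, within batch 1 it was 0.10, and without cKO mouse F3 it was 0.061. That of dKO versus ctrl was −0.13 with litter as a block, −0.089 within batch 3, 0.0058 without ctrl mouse 2, −0.024 without T4, −0.0041 without F1 and −0.13 without F7. The comparisons share mice. Over all genes with a mean of at least 1 CPM the medians were 0.029, 0.023 and 0.035. The 7 members at 100 CPM or more (*Bcl11b*, *Tbr1*, *Sox5*, *Tle4*, *Foxp2*, *Zfpm2* and *Ldb2*) were also set beside the 2176 genes of that level, because abundant genes as a class were shifted. In cKO versus dKO these 2176 genes had a median of 0.12, and 83.6% of them were above 0, against a median of 0.26 and 7 of 7 for the members. Among the 1235 of them that span at least 90000 bases, as 6 of the 7 members do, the median was 0.15 and 89.6% were above 0. In cKO versus ctrl the 2176 genes had a median of 0.075, with 70.8% above 0, and the 7 members a median of 0.14, with 6 above 0. In dKO versus ctrl the values were −0.0020 and 49.1%, and for the members −0.068 and 2 above 0.

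**Figure D3:**
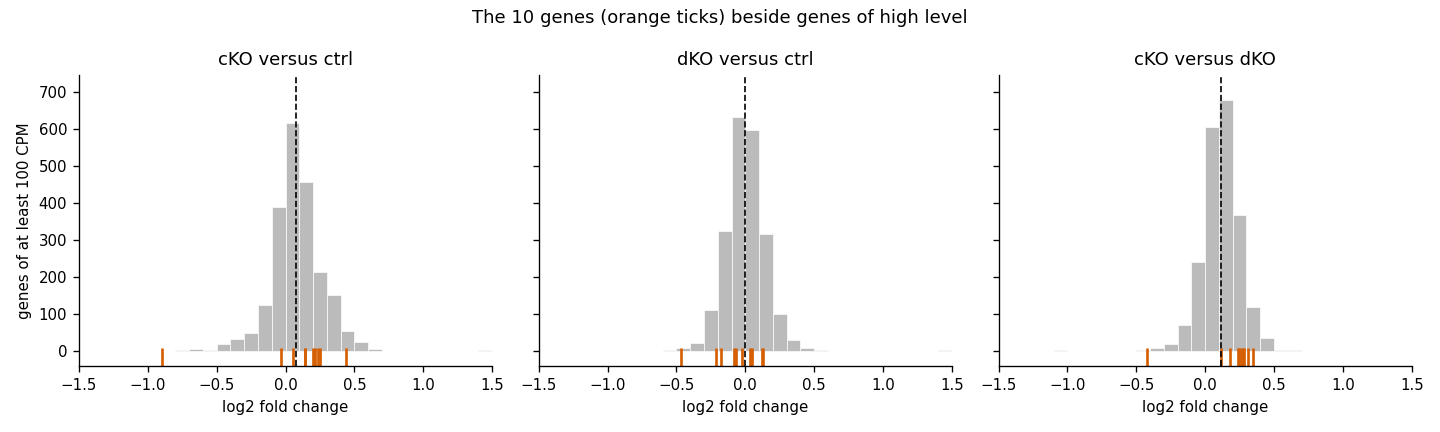
Histograms of the log2 fold change (x axis, bins of 0.1; values beyond the axis are in the end bins) of the 2176 genes with a mean of at least 100 CPM, with a dashed line at their median and orange ticks for the 10 deep-layer genes. *Fezf2*, *Nr4a2* and *Crym* are below 100 CPM and not among the genes of the histogram. In cKO versus dKO the gray histogram itself is shifted to a median of 0.12.

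In 5 of the 10 genes, *Bcl11b*, *Tbr1*, *Sox5*, *Foxp2* and *Zfpm2*, every cKO mouse was above every dKO mouse. This held for 0.95% of all listed genes, for 2.55% of those with at least 1 CPM, for 7.81% of those with at least 100 CPM and for 10% of those that also span at least 90000 bases. The reverse, every cKO mouse below every dKO mouse, held for 0 members and 0.422% of all listed genes. All 5 genes are above 100 CPM and 4 of them span at least 90000 bases. The CPM are scaled by TMM factors, which ran from 0.887 to 0.9988 in cKO and from 0.9413 to 1.093 in dKO. In counts divided by the total count alone, cKO and dKO mice overlapped for each of these 5 genes, so the separation depends on the scaling. Against ctrl, 0 of 10 genes had all cKO mice above all ctrl mice, which 0.443% of all genes did, and 0 had all dKO mice above all ctrl mice, which 0.15% did. Among genes of at least 1 CPM these shares were 0.845% and 0.377%. The depth and batch of the groups moved with the comparison of cKO with dKO, since 3 of 4 cKO mice and none of the dKO mice were in batch 1. Beside the median log2 fold change of 0.25, that of the 10 genes was 0.22 among mice of at least 1000000 counts, 0.34 with batch as a covariate and 0.31 with litter as a block. It was lower with other normalization or filtering, at 0.20 with DESeq2, 0.20 with RLE size factors and 0.21 with protein-coding genes only. Over the members that filterByExpr kept it was 0.19. Fitted on batch 3 alone, where F3 is the only cKO mouse and is assumed to vary like the others, the log2 fold change was 0.44 for *Sox5* and 0.37 for *Tle4*, both at an edgeR FDR of 1. In litter 4, cKO mouse F3 was above both F1 and F7 for 9 of the 10 genes, all but *Crym*, with ratios from 1.083 for *Bcl11b* to 1.49 for *Nr4a2*. The depth of F3, 4960141 counts, lay between the 3519529 of F1 and the 5396803 of F7. Its TMM factor of 0.887 was below the 0.9413 of F1 and the 0.9549 of F7. In counts divided by the total count alone, F3 was below F7 for *Bcl11b* and *Tbr1*, while the order held for the other members. The share of all listed genes with F3 above both F1 and F7 was not counted. The 9 of 10 genes are therefore given as description only. The part of depth or scaling in these ratios was not tested.

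Within litters the genes did not move in one direction against ctrl. In litter 1 the median log2 ratio of cKO to ctrl was 0.17, with 6 of 10 genes above 0, and in litter 2, which had S2 as the only cKO mouse, it was 0.057, with 5 of 10 above 0. In litter 1, cKO was higher without overlap for *Bcl11b* (ratio 1.45), *Foxp2* (1.26), *Ldb2* (1.21), *Tbr1* (1.19) and *Nr4a2* (1.19), and lower for *Zfpm2* (0.831) and *Crym* (0.484). In litter 3 the median log2 ratio of dKO to ctrl was −0.14, with 2 of 10 above 0, and *Sox5* (ratio 0.8002), *Foxp2* (0.906) and *Nr4a2* (0.566) were lower in both dKO mice than in the 3 ctrl mice. In litter 4 the median log2 ratio of cKO to dKO was 0.29. Over genes of at least 1 CPM, the same medians in litters 1, 2, 3 and 4 were 0.057, 0.031, 0.020 and 0.0015. Each litter holds few mice, and the share of all genes without overlap within a litter was not counted. The genes without overlap are therefore given as description only.

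**Figure D4:**
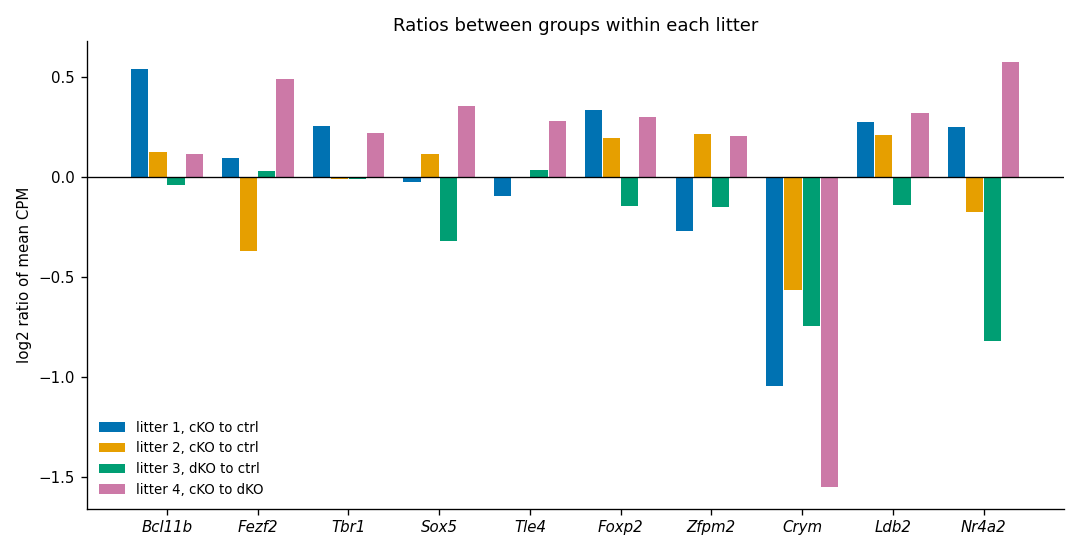
Log2 ratio of mean CPM between the groups of each litter (bars from 0) for each gene; each mean is over 1 to 3 mice and has no error bar. *Bcl11b*, *Foxp2* and *Ldb2* are above 0 in all 3 ratios with cKO as the first group, and *Crym* is below 0 in all 4.

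Among the ctrl mice, levels of some of the genes sorted by litter, with 2 or 3 mice in each litter. In a likelihood ratio test of the 3 litters over the 7 ctrl mice, 5 of the 10 genes were at an unadjusted p below 0.05, against 3.51% of all listed genes and 14.3% of those with at least 100 CPM. None reached an FDR below 0.05 (0.306% of all genes did). *Ldb2* separated the litters without overlap, at 430.2 and 432 CPM in litter 1, 318 to 381 CPM in litter 3 and 258 and 294 CPM in litter 2 (edgeR FDR = 0.236). *Crym* was highest in litter 1, at 6.72 and 12.7 CPM, and lowest in litter 2, at 1.54 and 2.17 CPM (edgeR FDR = 0.128). With only 1 to 40 *Crym* counts in a ctrl mouse, its order of litters is not firm. *Zfpm2* also separated them, narrowly between litters 1 and 3, and ran from 622 and 766 CPM in litter 1 to 460.4 and 485 CPM in litter 2 (edgeR FDR = 0.506). *Tle4* and *Bcl11b* were the others at an unadjusted p below 0.05. Litter 3 is all of the ctrl mice of batch 3, so litter and batch cannot be told apart there, and it holds wild-type T3 beside both heterozygous mice.

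The other genes of deep-layer neurons were read from a list of 7 for layer 5, 6 for layer 6 and 6 for the subplate. Of these 19, 0 were higher and 1 lower in cKO than in ctrl at an FDR below 0.05, and 0 were called in the other comparisons. Their median log2 fold change was 0.22 in cKO versus ctrl, with 13 of 19 above 0, 0.10 in dKO versus ctrl, with 12 above 0, and 0.11 in cKO versus dKO, with 14 above 0. All 6 layer 6 genes had positive log2 fold changes in each comparison, with medians of 0.37, 0.17 and 0.11. Summed, they were between 823 and 1272 CPM in ctrl, 971 and 1358 CPM in cKO and 894 and 1347 CPM in dKO, which overlapped. The other 2 lists were mixed in sign. Of the 7 layer 5 genes, 4, 4 and 5 were above 0 in the 3 comparisons, with medians of 0.15, 0.083 and 0.17. Of the 6 subplate genes, 3, 2 and 3 were above 0, with medians of 0.11, −0.11 and 0.033. The layer 5 gene with the smallest p was *Tshz2*, a zinc finger gene, in cKO versus ctrl (log2 fold change 0.32, edgeR FDR = 0.566) and dKO versus ctrl (0.19, FDR of 1), and *Igfbp4* in cKO versus dKO (−0.40, FDR of 1). The layer 6 gene with the smallest p in cKO versus dKO was *Ntsr1*, the neurotensin receptor of corticothalamic neurons (0.37, edgeR FDR of 1).

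*Lpar1* (ENSMUSG00000038668, chromosome 4 from 58435255 to 58553898), a lysophosphatidic acid receptor gene of the subplate that progenitors of the ventricular zone and other cells also use, was lower in cKO than in ctrl. It was at 18.5, 48.3 and 53.3 CPM in the lowest, median and highest ctrl mouse and at 15.0, 13.002, 36.2 and 20.9 CPM in cKO mice 5, 7, S2 and F3. In dKO mice T2, T8, F1 and F7 it was at 33.2, 52.7, 30.2 and 20.96 CPM. Ctrl mouse 2 and cKO mouse S2 made the cKO and ctrl groups overlap. The log2 fold change was −1.02 (SE 0.25, edgeR FDR = 0.0497), barely past the threshold, and the call was lost in 14 of the other settings, among them each ctrl mouse left out except 2. With litter as a block it was −1.0024 (edgeR FDR = 5.99e-06). In dKO versus ctrl it was −0.41 and in cKO versus dKO −0.61, both at an edgeR FDR of 1. *Lpar1* was the only 1 of the 6 subplate genes called, and 3 of the 6 were above 0 in cKO versus ctrl. *Syt6* (ENSMUSG00000027849, chromosome 3 from 103575231 to 103645569), a synaptotagmin gene of layer 6, was at 27.9, 39.7 and 82.3 CPM in the lowest, median and highest ctrl mouse. It was at 81.3, 76.0, 58.4 and 78.0 CPM in cKO mice 5, 7, S2 and F3 and at 71.3, 58.2, 62.5 and 80.7 CPM in dKO mice T2, T8, F1 and F7. Ctrl mouse 2 was the only ctrl mouse above 46.1 CPM. The log2 fold change was 0.75 in cKO versus ctrl (SE 0.19, edgeR FDR = 0.0528) and 0.67 in dKO versus ctrl (SE 0.20, edgeR FDR = 0.559), and with litter as a block the first was 0.68 (edgeR FDR = 0.00724). Without ctrl mouse 2 it was 0.95 (edgeR FDR = 1.24e-04), and the value in dKO versus ctrl 0.86 (edgeR FDR = 0.0072). With the quasi-likelihood F test dKO versus ctrl was also past the threshold (0.69, edgeR FDR = 0.0155). In cKO versus ctrl, *Syt6* passed in some of the other settings and missed in others. The edgeR FDR there was 0.226 with batch as a covariate, 0.273 with wild-type ctrl mice and 0.101 without ctrl mouse 6. In dKO versus ctrl it passed in no other setting that gave an FDR, with 0.937 from edgeR with batch as a covariate.

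Markers of other cells moved with some of these groups. The 10 striatal genes summed to 268 CPM in ctrl mouse 6 and between 538 and 787 CPM in the other ctrl mice, and to between 715 and 1170 CPM in cKO and 746 and 849.9 CPM in dKO. All 10 had a positive log2 fold change in both mutant groups against ctrl, and 0 were called. Mouse 6 also had the lowest *Bcl11b* (535 CPM) and *Foxp2* (420.1 CPM) of all mice and the highest *Zfpm2* (766 CPM), *Crym* (12.7 CPM) and, among ctrl, *Sox5* (2592 CPM). Without ctrl mouse 6, the log2 fold change in cKO versus ctrl was 0.19 for *Bcl11b*, 0.17 for *Foxp2* and −0.30 for *Crym*, all at an edgeR FDR of 1. The part of striatal cells in these levels was not tested. The 10 interneuron genes were all above 0 in cKO versus ctrl, with *Gad1* called (log2 fold change 0.56, SE 0.14, edgeR FDR = 0.0408), at 455 to 938 CPM summed in ctrl, 828 to 989 CPM in cKO and 632 to 887 CPM in dKO. The intermediate progenitor genes, of which *Eomes* (−1.13, SE 0.18) and *Neurog2* (−1.19, SE 0.25) were called lower in cKO versus ctrl, summed to between 141 and 202 CPM in ctrl, 68.0 and 152 CPM in cKO and 96.0 and 151 CPM in dKO. Radial glia genes ran from 415 to 691 CPM in ctrl, 449 to 574 CPM in cKO and 464 to 640.3 CPM in dKO, with 0 called. Upper-layer genes, at 2807 to 3570.3 CPM in ctrl, 2745 to 3321 CPM in cKO and 2634 to 3356 CPM in dKO, and the 6 pan-excitatory genes had 0 called in any comparison. CPM are shares of a total, so a fall of one class of cells raises the share of the others, and the part of this in the levels of the deep-layer genes was not tested.

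**Figure D5:**
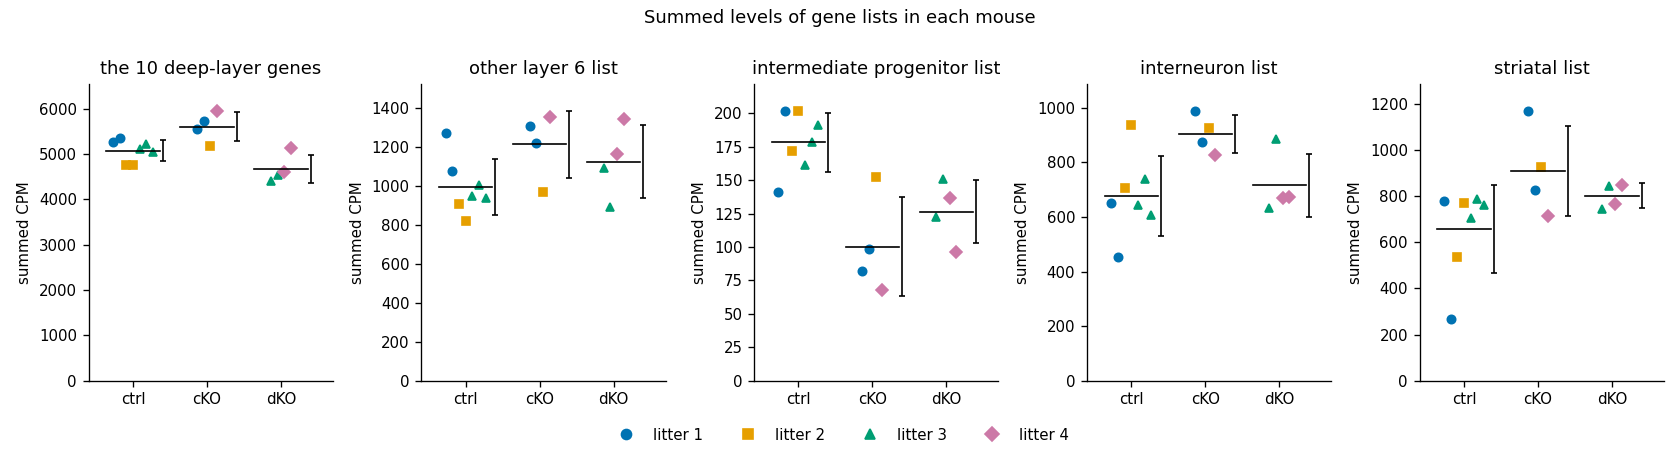
Summed CPM of 5 gene lists in each mouse (y axis, from 0) by group (x axis), with colors and shapes for litters, a line at the mean and a bar of 1 SD. The sums of the 10 deep-layer genes in the 4 cKO mice (5188 to 5953 CPM) lie above those of the 4 dKO mice (4416 to 5125 CPM), *Sox5* being the largest part of each sum, and ctrl mouse 6 lies apart at 268 CPM in the striatal list.

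Of the remaining lists, thalamic genes summed to between 89.0 and 129.6 CPM in ctrl, 62.8 and 106 CPM in cKO and 77.6 and 130.3 CPM in dKO, with 0 of 4 called. Cajal-Retzius genes, of which *Reln* is the most abundant, were at 512 to 719 CPM in ctrl, 657 to 725 CPM in cKO and 564 to 631 CPM in dKO, with 0 of 6 called. Microglia genes were between 6.52 and 23.2 CPM summed over all mice and endothelial genes between 56.5 and 152 CPM, with 0 called in both lists. Erythroid genes were at 8.47 to 21.8 CPM in ctrl, 16.8 to 20.9 CPM in cKO and 22.2 to 30.5 CPM in dKO, with *Hba-a2* called higher in dKO versus ctrl (1.98, SE 0.47, edgeR FDR = 0.0203).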

How the data were processed

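UMI RNA-seq counts of 16 libraries from 15 mice were analyzed. Per the labels and methods, rRNA-depleted RNA was made into ClickSeq libraries, and the authors trimmed the reads with cutadapt 1.13, aligned them to GRCm38/mm10 with STAR 2.5.2a, removed PCR copies with UMI-tools 0.5.3 and assigned reads to genes with htseq-count 0.6.1p1. The deposited values are raw counts per gene, and the strand setting and annotation release are not given in the sources used here. The 5 summary lines of each file, 21.6% to 38.7% of all counts, were left out. Libraries S2 and S2b of 1 mouse, with a chi-square per degree of freedom of 1.14 over 13658 genes, were summed. GENCODE M21 named 51719 of 51912 genes.

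Each comparison was fitted on its own 2 groups with edgeR 4.0.16 (TMM, estimateDisp, glmFit and glmLRT, R 4.3.3) over all listed genes, without covariates, with Benjamini-Hochberg FDR. CPM were scaled by TMM over all mice, and the limit that a count of 0 allows, 3 counts, was between 0.341 and 7.50 CPM per mouse, for counting error only. Intervals are the log2 fold change ± 1.96 SE. Ctrl litters were compared with a likelihood ratio test. Alternatives tried were DESeq2 1.42.0, the quasi-likelihood F test of edgeR, RLE factors, filterByExpr, protein-coding genes, a fit of all groups, covariates, single batches and litters, subsets of mice and each mouse left out. The fits were also run on simulated counts, without litter or batch effects and with planted changes larger than any main fit of a member. That run does not bear on power or intervals at the sizes reported here.

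The 10 genes and all lists were chosen with earlier results of these data known. Named genes were the members, *Knl1*, *Trp53* and called genes of other lists, with the smallest-p gene for the deep-layer lists only. Litters, which the labels name, pair mice of different groups. The settings restricted to litter 1, litter 4, batch 3 for cKO versus dKO, mice other than F1 and F7, the test of ctrl litters, and the classes of genes of at least 100 CPM were chosen after seeing the data. Plots were made in matplotlib 3.10.9.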

Additional observations from a re-analysis of the deposited data

Results flagged for a closer look

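In cKO mouse S2, *Ldb2* was at 319 CPM, while cKO mice 5, 7 and F3 were between 518 and 550.5 CPM, a gap large enough to set S2 apart from its group of 4. Of the 30 sets of values examined in this way (10 genes in 3 groups), this was the only one to stand out, and about 1 in 20 would by chance. Both ctrl littermates of S2 were lower still, at 258 and 294 CPM.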

How the results depend on the processing

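In dKO versus ctrl and cKO versus dKO, 0 members were called under every alternative run. In cKO versus ctrl, 1 member, *Ldb2*, was called with the quasi-likelihood F test and without cKO mouse S2, so the count ran from 0 to 1 over single mice left out, and 0 were called under the other alternatives. With litter as a block, the pairing that the labels give, 0 members were called in each comparison, and the median log2 fold change of the members in cKO versus ctrl moved from 0.17 to 0.041. Without dKO mice F1 and F7 that in dKO versus ctrl moved from −0.045 to −0.17. With single mice left out the medians ran from 0.061 to 0.22, from −0.13 to 0.0058 and from 0.21 to 0.32 in the 3 comparisons, the lowest of the first without F3.

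Of all listed genes, 83 were called in cKO versus ctrl, and 352 with the quasi-likelihood F test, 138 with DESeq2, 138 with filterByExpr, 49 with all 3 groups in one fit, 13 with batch 1 only, 52 with mice of at least 1000000 counts and 16 with wild-type ctrl mice. Leaving out single mice gave 17 to 373, with a change of over 1.5 times without 5 (17), 7 (24), S2 (373), T4 (45), T5 (48) and F3 (33).

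Of all listed genes, 26 were called in dKO versus ctrl, and 113 with the quasi-likelihood F test, 8 with DESeq2, 14 with filterByExpr, 10 with protein-coding genes only, 14 with all 3 groups in one fit, 4 with litter as a block, 17 with batch as a covariate, 3 with litter 3 only, 0 without dKO mice F1 and F7 and 17 with wild-type ctrl mice. Leaving out single mice gave 17 to 59, with a change of over 1.5 times without T2 (42), T8 (59) and F7 (17).

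Of all listed genes, 27 were called in cKO versus dKO, and 184 with the quasi-likelihood F test, 7 with DESeq2, 14 with filterByExpr, 13 with protein-coding genes only, 14 with all 3 groups in one fit, 3 with batch as a covariate, 44 with sex as a covariate, 1 with batch 3 only, 8 with litter 4 only, 58 without dKO mice F1 and F7 and 62 with mice of at least 1000000 counts. Leaving out single mice gave 6 to 179, with a change of over 1.5 times without 5 (7), 7 (6), S2 (12), T2 (62), T8 (79), F1 (179) and F7 (14).

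Signs of log2 fold changes turned in cKO versus ctrl as follows. *Fezf2* was −0.21 with litter as a block, −0.20 with batch 1 only, −0.057 with litter 1 only and −0.089 to 0.32 over single mice left out. *Sox5* was −0.00042 with DESeq2, −0.0014 with RLE size factors, −0.0053 with filterByExpr and −0.024 with litter 1 only. *Tle4* was −0.056 with litter as a block, −0.016 with batch 1 only and −0.069 with litter 1 only. *Zfpm2* was 0.011 with wild-type ctrl mice and −0.084 to 0.058 over single mice left out.

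Signs of log2 fold changes turned in dKO versus ctrl as follows. *Bcl11b* was −0.030 with litter as a block, −0.013 with batch 3 only, −0.024 with litter 3 only and −0.013 to 0.12 over single mice left out. *Fezf2* was −0.031 with litter as a block, −0.0098 with litter 3 only and −0.25 without dKO mice F1 and F7. *Tle4* was 0.070 with litter as a block, 0.15 with batch as a covariate, 0.13 with batch 3 only, 0.078 with litter 3 only, 0.012 with mice of at least 1000000 counts and −0.15 to 0.010 over single mice left out. *Foxp2* was 0.066 with mice of at least 1000000 counts, 0.011 with wild-type ctrl mice and −0.069 to 0.014 over single mice left out. *Crym* was −0.84 to 0.17 over single mice left out. *Ldb2* was −0.13 with litter as a block, −0.12 with litter 3 only, −0.15 without dKO mice F1 and F7 and −0.046 to 0.21 over single mice left out. *Nr4a2* was −0.042 with DESeq2, −0.00074 with filterByExpr, −0.0082 with all 3 groups in one fit, −0.70 with litter as a block, −0.29 with batch as a covariate, −0.30 with batch 3 only, −0.71 with litter 3 only, −0.40 without dKO mice F1 and F7 and −0.21 to 0.13 over single mice left out. *Lpar1* was 0.034 with litter as a block, 0.040 with litter 3 only and 0.0036 without dKO mice F1 and F7.

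Signs of log2 fold changes turned in cKO versus dKO as follows. *Fezf2* was −0.18 to 0.21 over single mice left out. *Crym* was 0.034 without dKO mice F1 and F7.

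*Lpar1* lost its call in 14 alternatives and kept its sign in cKO versus ctrl. No member with a turned sign was called, and the cause of these changes was not tested. Depth limited *Crym*, *Fezf2* and *Nr4a2*, with as few as 1, 10 and 11 counts in a mouse.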
